A study of Mus musculus with 4 samples.

Results

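Collagen genes encode the chains of the most abundant proteins of the extracellular matrix, and they were followed here through the accessible chromatin of early mouse forelimb buds. Their members were all autosomal protein-coding genes of the GENCODE M1 annotation (genome build mm9) whose symbol is Col, a number, the letter a and a number. That rule found 41 genes among 21418. The regions examined had their centre within 2.5 kb of a transcription start of such a gene, inside the gene, or closer to one of its starts than to that of any other protein-coding gene. There were 181 such regions among 41797 autosomal regions at E9.5 and 196 among 45648 at E10.5.

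The data are from ATAC-seq of wild-type NMRI embryos, an assay that reads open chromatin from where a transposase has inserted adapters. At each of 2 stages there were 2 biological replicates, each 1 pair of forelimb buds from 1 embryo. The E9.5 samples, which the protocol dates to E9.75, kept the trunk attached to the buds, whereas the E10.5 samples are forelimb buds by source label and protocol, with hindlimb buds added in the tissue label. Because the authors combined both replicates into 1 list per stage, no difference between the lists has a replicate error, embryos could not serve as replicates in a test, and stage and trunk tissue cannot be told apart.

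Every collagen is built from a trio of chains wound into a triple helix, and the chains sort into classes by what they assemble into. Fibrillar collagens make the fibrils of connective tissue and, with type II and type XI chains, of cartilage. The type IV chains form the network of basement membranes, and FACIT collagens, which have interrupted helices, sit on the surface of fibrils. In limb buds the mesenchyme makes type I and type III collagen and switches to types II, IX and XI when it condenses into cartilage, which is why Col2a1, Col9a1 and Col11a2 are used as markers of chondrocytes, the cells of cartilage.

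A promoter region, meaning a region whose centre lay within 2.5 kb of an annotated start of the gene, was found for 34 of 41 collagen genes at E9.5 (82.9%, 95% Wilson interval 68.7 to 91.5%) and for 31 at E10.5 (75.6%, 60.7 to 86.2%). Among all autosomal protein-coding genes the shares were 65.8% and 63.1%. These intervals, like all intervals given for shares, cover counting error only. Both lists held a promoter region of 30 collagen genes. In 4 genes the promoter region was in the E9.5 list only (background 3.85% of genes), and in 1 gene in the E10.5 list only (background 1.08%). For 6 genes neither list held one. Counting only the first, or 5′-most, start of each gene left 32 and 27 genes, and several collagen genes carry annotated starts far inside the gene. The share of all genes was not computed with first starts only. The part that the number of annotated starts has in the higher collagen shares was not tested.

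The promoters that were open at 1 stage only were weak. Each region carries a score, 10 times the negative log10 of its best peak-calling p-value, which grows with depth, so scores are compared between the stages only as ranks. Col11a2, which encodes a type XI chain of cartilage fibrils, had a single region, in intron 1 at 0.332 kb from its first start, with a score of 174 at E9.5, and no region at E10.5. Col6a1, a chain of the beaded type VI filaments that surround cells, had a promoter region of 115 at E9.5 only. Even so, its region 7.07 kb upstream was found at both stages, with a score of 420 at E9.5 and 797 at E10.5. Col8a2, of the hexagonal networks beneath the corneal endothelium, had E9.5-specific regions at its first start (score 125) and at an internal start (301.4). All 3 regions of Col20a1, a FACIT gene, were E9.5-specific, with scores of 125 to 217. The lone gene with a promoter region at E10.5 only was Col6a6, and that region lay in its intron 1, 16.4 kb from the first start, with a score of 163.

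No promoter region was found at either stage for Col6a3, Col6a4 and Col6a5 of the type VI filaments, for Col7a1, the anchoring fibril collagen of skin, for Col10a1, which marks hypertrophic chondrocytes, or for Col17a1, a transmembrane collagen of epithelial attachment plaques. All 6 did have regions elsewhere, Col6a4 with 3 and Col6a5 with 1 at each stage. Col7a1 had 1 region, found at E10.5 only, 3.78 kb upstream of its first start, and with a score of 1035 it was the highest-scoring stage-specific region of any collagen gene. Col10a1 had 1 weak E10.5-specific region, 21.6 kb upstream, with a score of 77.7. The single region of Col17a1, in intron 33, was shared and scored 171 at E9.5 and 116 at E10.5. Of the 3 regions of Col6a3 at E9.5 all were shared, the strongest 99.8 kb beyond its first start with scores of 769 and 366.

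The rank of the promoters showed where the stages differed most within genes open at both. The promoter percentile of a gene is the rank, from 0 to 100, of its best promoter region score among all autosomal protein-coding genes with a promoter region in the same list. Its median over collagen genes was 24.6 for E9.5 and 39.3 for E10.5, both below the 50 of a middling gene. Between the lists, 15 of the 30 genes ranked higher at E10.5 and 15 ranked lower, with a median change of 0.49 points, beside -1.24 over all 13273 genes ranked in both. The spread was wider than over all genes, with an SD of 22.8 points against 14.5.

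**Figure D1:**
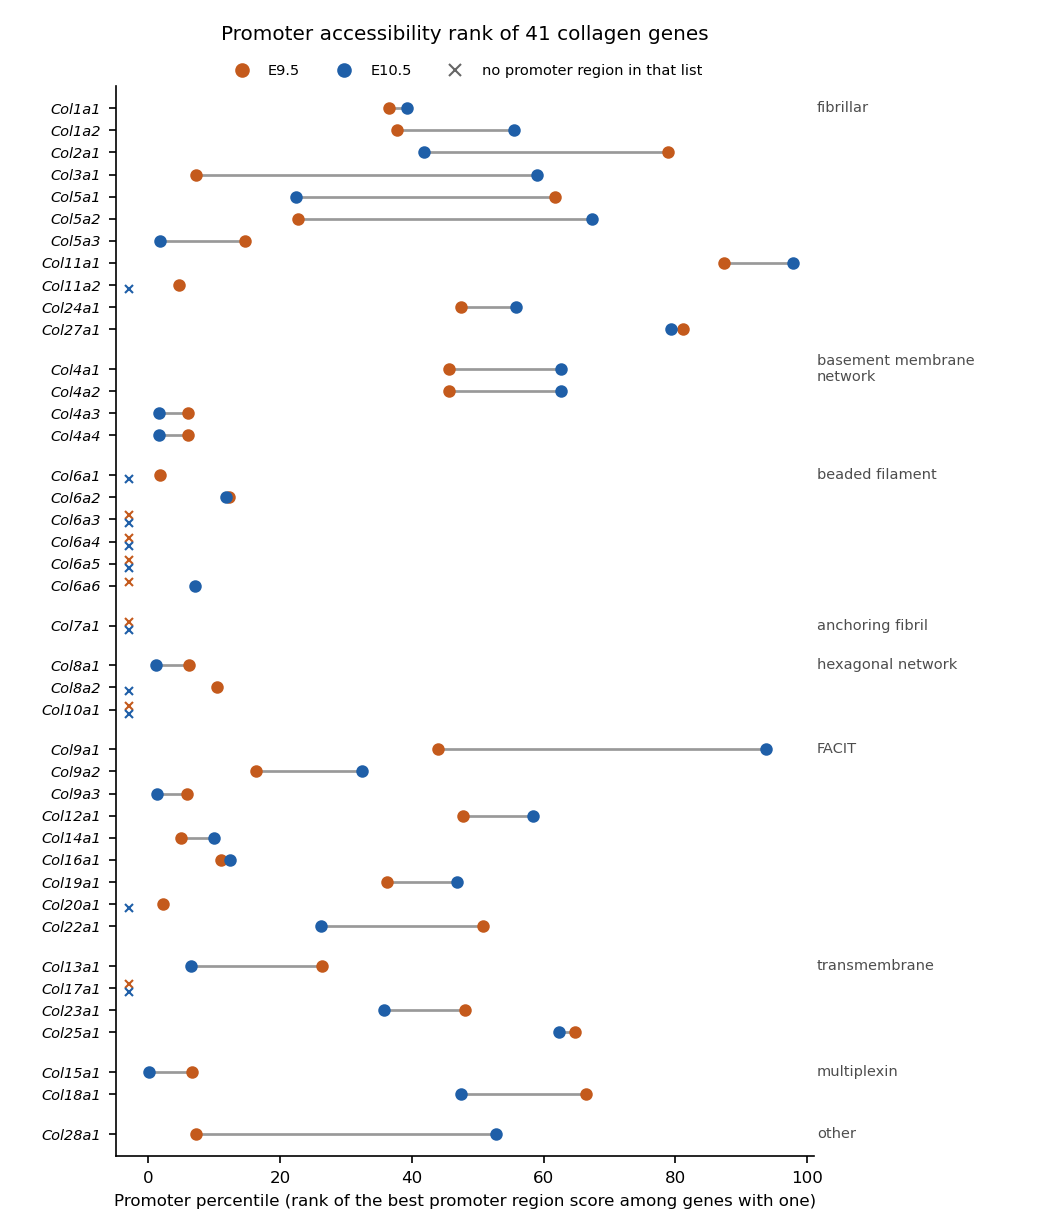
Promoter percentile of each of the 41 collagen genes at E9.5 (orange) and E10.5 (blue), grouped by class, with a grey line joining the stages and a cross where a list held no promoter region of that gene. Col3a1, Col5a2, Col9a1 and Col28a1 sit at least 20 points further right at E10.5, Col2a1, Col5a1 and Col22a1 at least 20 points further left, and the type VI genes have crosses or ranks of at most 12.2.

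In 4 of 30 genes the promoter ranked at least 20 points higher at E10.5, against 5.53% of all genes. Col3a1, which encodes the type III collagen of loose connective tissue, had a promoter percentile of 7.18 in the E9.5 list and 59.0 in that of E10.5. In the former its start carried 3 narrow shared regions with scores of 227, 111 and 143, which at E10.5 were a single region of 3554 bp (chr1:45367774-45371327) with a score of 1038. The centre of that wide region lay 1.17 kb from the start, so with a promoter distance of 1 kb Col3a1 had a promoter region at E9.5 only, at a percentile of 6.58, and the direction of the difference turned. Col5a2, a type V chain that joins type I fibrils, lies tail to tail with Col3a1 across a gap of 24.6 kb. Its promoter percentiles were 22.8 and 67.4, with scores of 596 and 1249. The pair thus ranked higher together at E10.5. Over both genes the list of E9.5 held 6 regions, of which 1 was stage-specific, and that of E10.5 held 12, of which 9 were.

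The 300 bases around the centre of the E10.5 promoter region of each are shown on the coding strand because these are the neighbouring promoters whose ranks differed most. Capitals mark the short words searched for, which are listed with the motif counts further on.
Col3a1, chr1:45369401-45369700, plus strand, intron 1: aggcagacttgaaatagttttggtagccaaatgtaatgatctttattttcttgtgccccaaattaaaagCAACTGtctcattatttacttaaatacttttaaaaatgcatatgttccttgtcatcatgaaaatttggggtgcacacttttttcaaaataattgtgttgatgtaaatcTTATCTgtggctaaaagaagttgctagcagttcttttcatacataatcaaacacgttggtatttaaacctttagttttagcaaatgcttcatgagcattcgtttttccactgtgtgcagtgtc
Col5a2, chr1:45559072-45559371, minus strand, intron 1: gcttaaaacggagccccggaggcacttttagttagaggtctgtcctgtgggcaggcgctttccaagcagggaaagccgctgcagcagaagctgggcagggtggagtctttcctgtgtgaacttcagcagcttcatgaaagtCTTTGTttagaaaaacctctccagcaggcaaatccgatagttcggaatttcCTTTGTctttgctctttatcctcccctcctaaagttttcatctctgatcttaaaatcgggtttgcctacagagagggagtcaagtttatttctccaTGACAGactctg
The Col5a2 stretch held the SOX word CTTTGT 2 times and TGACAG 1 time. That of Col3a1 held 1 E-box and 1 GATA word and had a GC content of 32.3%, against 48.0% in Col5a2.

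Col9a1, a chain of the type IX collagen on cartilage fibrils, had its strong promoter region not at the first start but in intron 7, 18.2 kb downstream, at the start of 2 shorter protein-coding transcripts. No region lay within 2.5 kb of its first start in either list. The intron 7 region scored 1068 at E9.5 and 2669 at E10.5, which gave promoter percentiles of 44.0 and 93.7. Further E10.5-specific regions lay 34.7 kb upstream (score 482), in intron 20 (289), in intron 36 (755), 82.0 kb from the first start (132) and inside the neighbouring Col19a1 (218.5). Of the 7 regions of Col9a1 at E9.5, 1 was stage-specific, and of the 11 at E10.5, 5 were. The centre of the intron 7 region is shown as the start that carried this difference, with capitals marking 3 words, an AP-1 word, an E-box and a palindromic SMAD word.
Col9a1, chr1:24202510-24202809, plus strand, intron 7: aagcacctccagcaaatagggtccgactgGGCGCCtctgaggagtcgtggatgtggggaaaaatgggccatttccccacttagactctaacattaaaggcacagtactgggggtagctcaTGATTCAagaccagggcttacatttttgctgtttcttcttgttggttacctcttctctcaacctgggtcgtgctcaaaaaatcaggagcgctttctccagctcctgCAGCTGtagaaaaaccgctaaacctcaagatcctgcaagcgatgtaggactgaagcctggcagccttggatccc
Col28a1, a collagen outside the main classes, had promoter percentiles of 7.23 and 52.7, but its first start carried no region in either list. The 2 percentiles belong to different internal starts. That of E9.5 came from an E9.5-specific region in intron 3, 18.4 kb from the first start, with a score of 227. The E10.5 region, in intron 23 at 115 kb from the first start with a score of 903, counts as a promoter region only through a short transcript annotated without a coding sequence. This intron 23 region was shared and scored 222 at E9.5. Of its 9 regions at E10.5, 7 were stage-specific, against 1 of 3 at E9.5.

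In 3 of 30 genes the promoter ranked at least 20 points lower at E10.5, a share near the 9.749% of all genes. The genes are therefore described singly, and their number does not set collagen genes apart. Col2a1, the main collagen of cartilage, had a promoter percentile of 78.8 in the earlier and 41.9 in the later list. Its E9.5 region (chr15:97831398-97836227) was, at 4830 bp, the widest of all collagen regions and scored 2091. At E10.5 the same stretch held 2 regions, 1 over the first start with a score of 690.1 and 1 in intron 1 with a score of 374. Its regions in introns 14 and 16 were likewise shared, with scores of 1060 and 1334 at E9.5 and 637 and 572 at E10.5. When only a distance of 1 kb counted as promoter, the difference of Col2a1 was 13.7 points lower and no longer reached 20. Cartilage markers were read the same way, with Sox9, the master regulator of chondrocytes, at a promoter percentile of 82.8 at E9.5 and 48.0 at E10.5, Acan with a promoter region at E9.5 only (score 244) and Matn1 with none in either list. Sox9 is also active in the neural tube and somites of the trunk, so the part that attached trunk has in these ranks was not tested. The centre of the E10.5 region over the Col2a1 start, which lies in intron 1, held none of the words searched for.
Col2a1, chr15:97834465-97834764, minus strand: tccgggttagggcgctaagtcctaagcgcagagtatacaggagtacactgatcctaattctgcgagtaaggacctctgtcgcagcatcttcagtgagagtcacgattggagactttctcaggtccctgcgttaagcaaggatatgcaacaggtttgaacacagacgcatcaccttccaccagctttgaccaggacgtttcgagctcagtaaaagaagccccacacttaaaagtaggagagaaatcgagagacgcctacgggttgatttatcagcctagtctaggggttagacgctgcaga
Col5a1, which encodes the other main type V chain, went the opposite way to Col5a2. Its promoter region lay 0.154 kb from the start, at a promoter percentile of 61.8 at E9.5 (score 1505) and 22.4 at E10.5 (score 381). Col22a1, a FACIT collagen of tissue junctions, had promoter percentiles of 50.7 and 26.2. Just under the limit were Col13a1, with a change of -19.87 points, and Col18a1, with -19.10.

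Among the fibrillar genes, 11 of 11 had a promoter region in the earlier list and 10 in the later one, and their median promoter percentile was 37.8 and 55.7. The second median lacks Col11a2, which ranked lowest of them at E9.5, at 4.64. Col11a1, a type XI chain that nucleates thin fibrils, had the highest-scoring promoter of any collagen gene, with a score of 2568 at E9.5 and 3100, where the scores pile up, at E10.5. Col27a1 followed at E9.5 with a score of 2217, and 1654 at E10.5. The type I pair, Col1a1 and Col1a2, whose chains form the fibrils of skin, tendon and bone, ranked at or above the median of the collagen genes. Col1a1 had promoter percentiles of 36.6 and 39.3, and Col1a2 of 37.8 and 55.5.

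Around Col1a2 the difference between the lists was in the distal regions. It had 11 regions at E9.5 and 8 at E10.5, and 7 of the 8 were shared. Region percentiles, the rank of a region's score among all autosomal regions of its list, were higher at E10.5 at several of these. The region 52.8 kb beyond the start, past the end of the gene, was at the percentile 58.0 at E9.5 and 93.3 at E10.5, with scores of 344 and 1567. Upstream, the region at 20.5 kb was at 22.5 and 84.8, with scores of 133 and 936. The region at 48.1 kb upstream was at 71.9 and 92.8. Near 15.6 kb upstream, 2 regions of E9.5 at 36.3 and 69.3 met a single E10.5 region at 90.6. All of these outranked the promoter region itself at E10.5, which was at the region percentile 85.4, except for the region at 20.5 kb. The downstream and the 20.5 kb upstream regions are printed as shared sites on either side of the gene that each overlapped a single region of the other list.
Col1a2 downstream, chr6:4507443-4507742, plus strand: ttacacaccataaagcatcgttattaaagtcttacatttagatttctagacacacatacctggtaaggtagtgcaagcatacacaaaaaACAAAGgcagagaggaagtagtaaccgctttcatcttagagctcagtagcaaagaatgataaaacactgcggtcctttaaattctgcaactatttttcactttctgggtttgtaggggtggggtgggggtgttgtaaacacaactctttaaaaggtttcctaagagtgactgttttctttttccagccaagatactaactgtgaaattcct
Col1a2 upstream, chr6:4434116-4434415, plus strand: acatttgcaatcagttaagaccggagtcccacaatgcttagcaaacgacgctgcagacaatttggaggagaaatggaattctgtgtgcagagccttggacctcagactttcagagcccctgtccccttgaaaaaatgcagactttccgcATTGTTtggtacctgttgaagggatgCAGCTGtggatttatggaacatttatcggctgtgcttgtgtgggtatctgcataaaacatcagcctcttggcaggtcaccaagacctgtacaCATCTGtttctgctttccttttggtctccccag
The downstream stretch held 1 SOX word and the upstream stretch 1 SOX word and 2 E-boxes, in capitals.

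Col1a1 had 7 regions at E9.5. All 4 of its stage-specific regions were found at E9.5, between 59.3 and 69.5 kb upstream, with scores of 100.4 to 204. Its 3 E10.5 regions were all shared, and the 2 distal ones, 54.4 and 7.17 kb upstream, were at region percentiles of 87.7 and 80.2.

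The type IV genes are arranged in head-to-head pairs. Col4a1 and Col4a2, whose chains form the ubiquitous basement membrane network, start on opposite strands of chromosome 8 and overlap by 22 bases. They share 1 promoter region, with a score of 1105 at E9.5 and 1119 at E10.5 and promoter percentiles of 45.7 and 62.7. Col4a3 and Col4a4, which encode chains of specialised membranes such as that of the kidney glomerulus, are 71 bases apart on chromosome 1. Their shared promoter region was weak, with scores of 200.1 and 104 and promoter percentiles of 6.0 and 1.55. The stretch between the starts of each pair is shown because 1 accessible region serves both genes.
Col4a1 and Col4a2, overlap of the first exons, chr8:11312805-11312826, plus strand: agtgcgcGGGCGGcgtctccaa
Col4a4 and Col4a3, chr1:82583425-82583495, plus strand: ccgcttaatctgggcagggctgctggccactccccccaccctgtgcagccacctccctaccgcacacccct
Capitals mark the SP word GGGCGG in the first. None of the words searched for was in the second.
Although the promoter of Col4a1 and Col4a2 was shared, Col4a2 had 15 regions at E9.5, 11 of them stage-specific, and 5 at E10.5, 1 of them stage-specific. The E9.5-specific regions scored 86.1 to 355. They lay in introns, in an exon and past the end of Col4a2, and also upstream of it, in intron 1 of Col4a1. Col4a1 had 8 and 7 regions, 3 and 2 of them stage-specific, and its 3 E9.5-specific regions, nearer to the start of Col4a2 or inside it, are among the 11 counted for Col4a2. Counted once, the regions of the pair numbered 18 at E9.5 with 11 stage-specific and 9 at E10.5 with 2.

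Among the 9 FACIT genes all had a promoter region in the E9.5 list and 8 in that of E10.5, with a median promoter percentile of 16.3 and 29.4. Missing from the second median is Col20a1, which ranked lowest of them at E9.5, at 2.24. Col12a1, found in tendon and dense connective tissue, had 6 regions at E9.5 with 2 stage-specific, and 13 at E10.5 with 9 stage-specific. Of those 9, 1 lay in intron 37 and the others outside the gene, up to 580 kb from its first start, assigned because no protein-coding start was closer. Col14a1, its close relative, had 7 regions at E9.5 with 1 stage-specific and 9 at E10.5 with 3 stage-specific. The shared region 27.0 kb upstream of Col14a1 was at region percentiles of 41.6 and 73.9.

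Of the transmembrane collagens, Col25a1 and Col13a1 were far apart in their counts. Col25a1, a gene of motor nerve and muscle development, had 7 regions at E9.5 with 5 stage-specific and 15 at E10.5 with 13 stage-specific, 12 of the 15 in its introns. Its promoter had scores of 1592 and 1110 and percentiles of 64.8 and 62.3. Col13a1, a collagen of cell adhesion sites and the neuromuscular junction, had 13 regions at E9.5 with 4 stage-specific and 9 at E10.5, of which 0 were stage-specific. Its best promoter region scored 673 at E9.5 and 158 at E10.5. Col23a1 had the most regions of all collagen genes over both lists, 14 and 13, of which 4 and 2 were stage-specific. Col18a1, a basement membrane collagen that carries endostatin, had 11 regions at E9.5 with 7 stage-specific and 5 at E10.5 with 1. Col8a1, of the hexagonal networks, had 7 regions with 3 stage-specific and 10 with 6, and its shared region about 259 kb upstream was at region percentiles of 41.4 and 85.0.

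**Figure D2:**
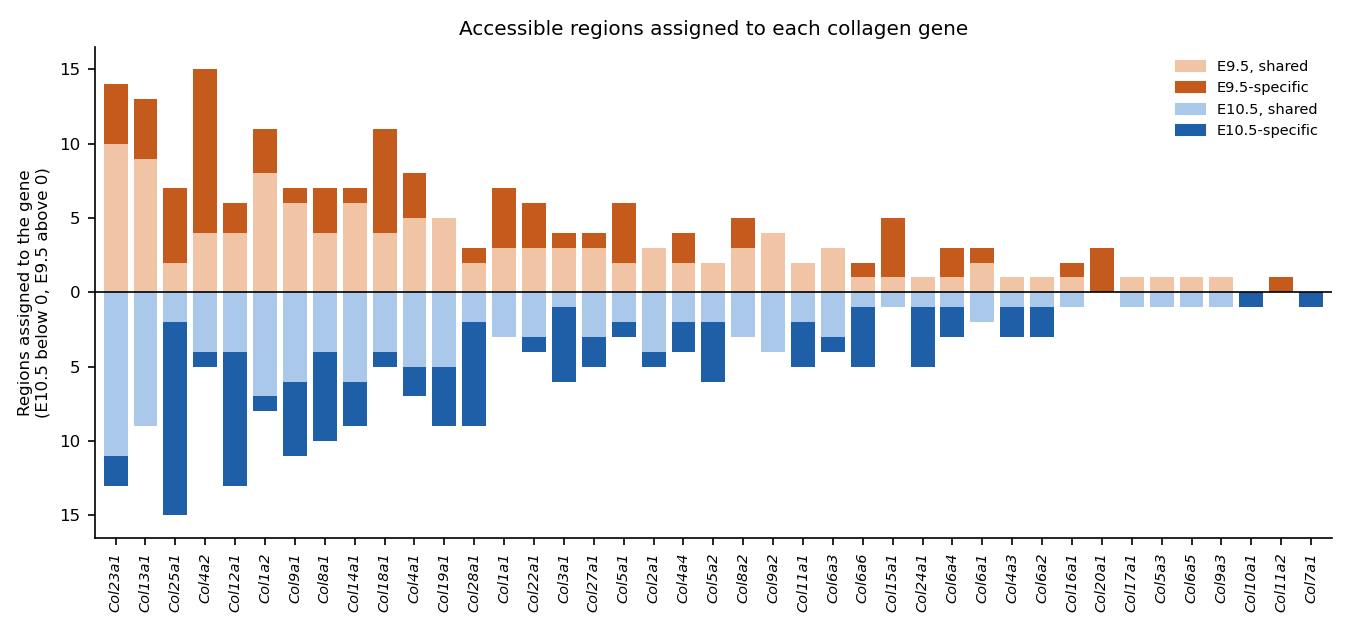
Number of regions assigned to each of the 41 collagen genes, E9.5 as bars above 0 and E10.5 as bars below 0, with shared regions in light and stage-specific regions in dark colour, ordered by the total over both lists. Among the genes with most regions, stage-specific ones outnumber shared ones at E9.5 in Col4a2 (11 of 15) and Col18a1 (7 of 11). They do so at E10.5 in Col12a1 (9 of 13) and Col8a1 (6 of 10), and at both stages in Col25a1 (5 of 7 and 13 of 15).

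Over all collagen genes, 72 of 181 regions at E9.5 were stage-specific, meaning that they overlapped no region of the other list (39.8%, 32.9 to 47.1%), against 30.1% of all autosomal regions. At E10.5, 88 of 196 were (44.9%, 38.1 to 51.9%), against 35.0%. Collagen regions were less often at promoters than regions in general, 27.6% (21.6 to 34.6%) against 37.9% at E9.5 and 20.4% (15.4 to 26.6%) against 32.6% at E10.5, and distal regions are more often stage-specific. Among distal regions, over 2.5 kb from any protein-coding start, 60 of 131 were E9.5-specific (45.8%, 37.5 to 54.3%) beside a background of 40.4%, and 87 of 156 were E10.5-specific (55.8%, 47.9 to 63.3%) beside 49.4%. Intronic regions gave 37 of 77 (48.1%, 37.3 to 59.0%) beside 43.7% and 49 of 88 (55.7%, 45.3 to 65.6%) beside 50.1%. The intervals of the distal and of the intronic shares thus covered the background in both lists.

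**Figure D3:**
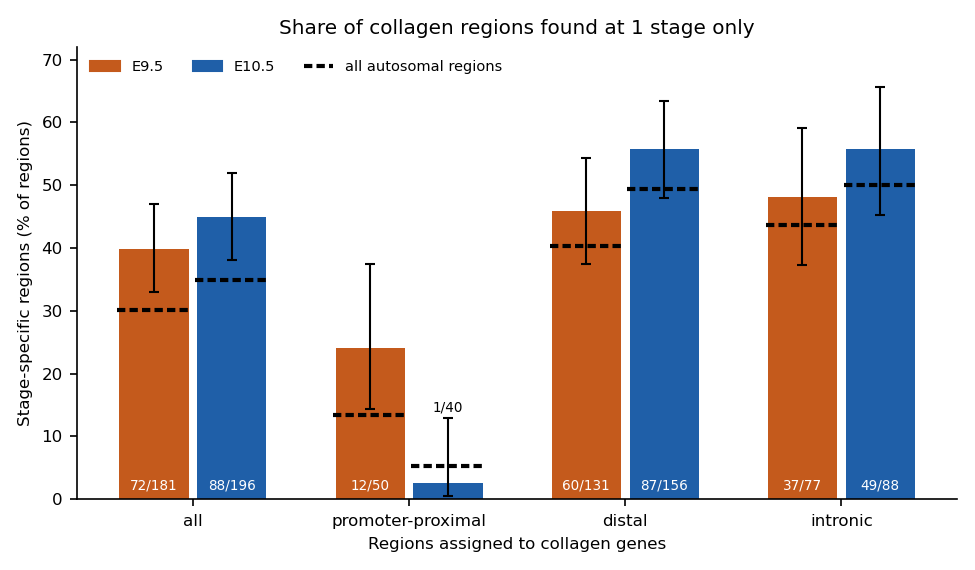
Stage-specific regions as a percentage of all, promoter-proximal, distal and intronic regions of collagen genes at E9.5 and E10.5. Bars give the share with its 95% Wilson interval, the fraction at each bar gives the counts, and the dashed line is the share among all autosomal regions of that kind, which lies inside the interval of each distal and intronic bar.

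At promoters, stage-specific regions were nearly all of E9.5, with 12 of the 50 promoter-proximal collagen regions at E9.5 (24%, 14.3 to 37.4%) and 1 of 40 at E10.5 (2.5%, 0.443 to 12.9%). Over all autosomal promoter-proximal regions the shares were 13.4% and 5.20%. Of the regions assigned as promoter regions of a collagen gene, 14 of 49 in the E9.5 list and 10 of 39 in the other lay away from the first start. The same share was not computed over all genes, so these counts describe the collagen genes only.

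Collagen genes are long, with a median of 107 kb against 15.5 kb for all autosomal protein-coding genes. Their introns held 1.66 regions per 100 kb of gene at E9.5 and 1.89 at E10.5, where all genes together held 1.1 and 1.24. Regions in exons or within 2.5 kb of a start of the gene were not counted, but the whole gene length was used. This lowers the value more in short genes, and its part in the difference was not tested. Regions were found in introns of 24 collagen genes at E9.5 and 26 at E10.5. No such count was made for all autosomal protein-coding genes, whose median length is shorter. These counts therefore describe the collagen genes only. Collagen regions ranked low, with a median region percentile of 36.9 and 40.2, but fewer of them were at promoters. Distal ones were at 28.5 and 37.3, beside 36.0 and 39.1 for all distal regions, a small difference at E10.5. Promoter-proximal ones were at 56.5 and 66.4, beside 78.1 and 77.3. Stage-specific collagen regions were at 22.01 in the E9.5 list and 31.9 in the other, where shared ones were at 44.97 and 50.1. The same split over all regions was not computed.

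None of the 5 highest-scoring stage-specific regions of either list was at a promoter. At E9.5 the highest scores were 630 at 30.4 kb upstream of Col6a4, 603 at 42.2 kb upstream of Col14a1, 491 at 40.9 kb upstream of Col13a1, 419 at 134 kb upstream of Col8a1 and 389 in intron 38 of Col4a4. At E10.5 they were 1035 upstream of Col7a1, 1032 at 19.4 kb upstream of Col25a1, 755 in intron 36 of Col9a1, 692 at 286 kb from the start of Col11a1 and 645 in intron 1 of Col5a2. Sequence at the centre of 4 of them is shown, the highest of each list and the cartilage and connective tissue genes that also had promoters ranked higher at E10.5.
Col6a4 upstream, E9.5-specific, chr9:106029331-106029630, minus strand: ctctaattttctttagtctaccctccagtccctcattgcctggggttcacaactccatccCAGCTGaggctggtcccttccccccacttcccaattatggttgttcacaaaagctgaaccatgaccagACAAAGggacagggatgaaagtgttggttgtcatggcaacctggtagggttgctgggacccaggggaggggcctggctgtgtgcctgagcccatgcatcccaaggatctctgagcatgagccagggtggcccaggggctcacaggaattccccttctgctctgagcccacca
Col7a1 upstream, E10.5-specific, chr9:108851699-108851998, plus strand: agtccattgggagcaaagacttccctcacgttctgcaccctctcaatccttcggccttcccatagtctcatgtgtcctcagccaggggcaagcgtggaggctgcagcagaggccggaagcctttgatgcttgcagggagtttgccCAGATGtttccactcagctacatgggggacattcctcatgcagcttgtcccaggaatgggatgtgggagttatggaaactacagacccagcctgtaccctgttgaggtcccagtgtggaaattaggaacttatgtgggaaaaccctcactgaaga
Col9a1 intron 36, E10.5-specific, chr1:24246951-24247250, plus strand: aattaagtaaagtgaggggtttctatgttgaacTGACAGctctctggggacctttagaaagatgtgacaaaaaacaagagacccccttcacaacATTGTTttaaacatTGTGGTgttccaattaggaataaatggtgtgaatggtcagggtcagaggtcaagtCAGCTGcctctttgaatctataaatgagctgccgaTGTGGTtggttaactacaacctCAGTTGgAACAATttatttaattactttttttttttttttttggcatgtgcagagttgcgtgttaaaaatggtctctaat
Col5a2 intron 1, E10.5-specific, chr1:45517623-45517922, minus strand: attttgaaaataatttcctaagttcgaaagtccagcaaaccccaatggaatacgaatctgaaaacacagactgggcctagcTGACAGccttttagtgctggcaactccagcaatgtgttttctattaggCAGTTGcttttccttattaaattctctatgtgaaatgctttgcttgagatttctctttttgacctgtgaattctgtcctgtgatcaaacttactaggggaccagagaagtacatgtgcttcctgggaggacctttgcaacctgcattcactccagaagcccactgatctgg
The Col9a1 stretch held 7 of the words searched for, with AACAAT 2 times, TGTGGT 2 times, E-boxes 2 times and TGACAG 1 time. The other 3 held 1 or 2 words each.

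Short words were searched on both strands of the 300 bases around the centre of each distal region, as a description and not as binding sites. Words may overlap. They were the SOX words AACAAT and CTTTGT, the AP-1 word TGANTCA, the RUNX word TGTGGT, the GATA word AGATAA, the E-box CANCTG, the SMAD words GTCTAGAC and GGCGCC, the PBX-HOX word TGATTGAT, the TALE word TGACAG and the SP word GGGCGG. The AP-1 word was in 19 of the 131 distal collagen regions at E9.5 (14.5%, 9.49 to 21.5%) and in 22 of the 156 at E10.5 (14.1%, 9.5 to 20.4%), where all distal regions gave 8.82% and 9.12%. The RUNX word was in 16.0% and 24.4% of distal collagen regions, beside 19.01% and 20.8% of all distal regions. AACAAT was in 3 of the 60 distal E9.5-specific collagen regions (5.0%, 1.71 to 13.7%) and in 17 of the 87 distal E10.5-specific ones (19.5%, 12.6 to 29.1%), beside 15.2% and 17.3% of all such regions. The other SOX word, CTTTGT, went the opposite way, in 22 of the 60 (36.7%, 25.6 to 49.3%) and 20 of the 87 (23.0%, 15.4 to 32.9%), beside 31.7% and 26.5%. The E-box was in 63.4% and 64.1% of distal collagen regions, beside 63.9% and 64.1%. Base composition differed with the stage, with a median GC content of 49.5% in distal E9.5-specific and 43.5% in distal E10.5-specific collagen regions, beside 50.8% and 44.2% of all such regions. Its part in the word counts was not tested.

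The genes that make, trim and sense collagen were read in the same way. Of 22 genes of collagen biosynthesis and crosslinking, 21 had a promoter region at the earlier stage and 20 at the later one, beside 65.8% and 63.1% of all genes. At E10.5, 0 ranked at least 20 points higher and 2 of the 20 ranked in both lists were lower by that much, a share near the 9.749% of all genes. Those were Serpinh1, the collagen chaperone HSP47, with promoter percentiles of 63.0 and 29.7, and Loxl2, a crosslinking oxidase, with 42.6 and 22.4. Their median promoter percentile, 60.1 at E9.5 and 56.6 at E10.5, was above that of the collagen genes in both lists. The prolyl hydroxylase subunits P4ha1 and P4hb were at 89.4 and 96.0 at E9.5 and at 76.4 and 89.8 at E10.5.

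All 8 genes of procollagen processing had a promoter region in both lists, as had 13273 of all 21418 autosomal protein-coding genes. In lists this short 1 or 2 genes past the limit are a description only. Pcolce, an enhancer of the C-proteinase, ranked higher at E10.5 (35.9 and 64.5), and Adamts2, the N-proteinase of fibrillar procollagens, ranked lower (46.9 and 14.4). Of 7 collagen receptor genes, 6 had a promoter region in both lists and Itga10 in neither. Ddr2, the discoidin receptor of mesenchymal cells that binds fibrillar collagen, had a promoter percentile of 3.42 at E9.5 and 64.2 at E10.5, with scores of 147 and 1160. Itga1, an integrin subunit that binds type IV collagen, had 46.6 and 80.6. Ddr1, the discoidin receptor of epithelia, ranked lower, with 54.5 and 15.3.

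The laminins, the other large family of basement membrane proteins, served as a comparison. In the E9.5 list all 11 had a promoter region, in the E10.5 list 8, beside 65.8% and 63.1% of all genes. The 3 with a promoter region at E9.5 only, where 3.85% of all genes had one, were the weakly scoring Lama3 (133), Lamb3 (276) and Lamc3 (156). Lama2, a chain of muscle and mesenchymal membranes, had promoter percentiles of 18.8 and 67.6, whereas the epithelial Lama1 had 91.8 and 61.4 and Lama5 50.4 and 28.3.

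The labelled tissue was checked with markers. All 5 limb mesenchyme genes (Prrx1, Prrx2, Tbx5, Twist1 and Msx1) and all 4 somite genes (Meox1, Pax1, Pax9 and Uncx) had a promoter region in both lists, that of Tbx5 at promoter percentiles of only 0.42 and 0.19. So had 13273 of all 21418 autosomal protein-coding genes, and presence alone therefore says little about the tissue. The ranks of both lists were mixed. Of the somite genes, Pax1 ranked higher at E10.5, with promoter percentiles of 21.7 at E9.5 and 40.6 at E10.5. Pax9 (51.9 and 43.1), Meox1 (4.73 and 1.99) and Uncx (5.71 and 2.8) ranked lower. Of the limb mesenchyme genes, Prrx1 (71.6 and 86.3) and Prrx2 (5.42 and 14.0) ranked higher. Twist1 (89.6 and 87.6), Msx1 (58.0 and 52.6) and Tbx5 ranked lower. The neural tube markers ranked lower at E10.5, with Neurog2 at a promoter percentile of 85.5 and 25.9 and Olig2 at 22.6 and 1.69, from scores of 593 and 105. Of 3 endothelial genes only Kdr had a promoter region, at 29.7 and 21.9, and the erythroid Klf1 was at 36.6 and 18.9. Of 3 surface ectoderm genes, Cdh1 had one at E9.5 only (score 150.2), Krt14 at E10.5 only (80.9) and Trp63 in neither list. The part of these other tissues in the ranks of the collagen genes was not tested.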

How the data were processed

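ATAC-seq reads of 2 replicates per stage were aligned by the authors to mm9 with Bowtie 1.1.0, and regions were called per replicate with MACS 1.4, no control library being used, and combined with MSPC (weak p-value 1e-06, stringent p-value 1e-10). The files as deposited hold a score, which the authors set to 10 times the negative log10 of the smallest MACS p-value behind a region, and it grows with sequencing depth, which is unknown here. Scores pile up at 3100. Values per replicate and hence replicate errors were not analysed.

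Regions were annotated with GENCODE M1 in Python 3.11.15 with numpy 2.4.6, scipy 1.17.1 and matplotlib 3.10.9, and sequences were read from NCBIM37, the assembly of mm9. Starts of all transcripts of a protein-coding gene counted, also of those without a coding sequence. Overlap of 1 bp or more with the other list made a region shared. GC content was taken over 301 bp around the centre. The assignment was tested on simulated regions. Shares carry 95% Wilson intervals, and no test was made.

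The collagen genes, the gene lists, the words and the limit of 20 percentile points were chosen with earlier results of these data known. Values are given for genes with a promoter region in 1 list only or in neither, the 10 genes with most regions, the genes of the 5 highest-scoring stage-specific regions of each list, genes past the limit, and Col2a1, Col9a1, Col11a2, Col1a1, Col1a2, Col3a1, Col4a1 and Col4a2. Other genes named were chosen after their values were seen. Of the lists, Mia3, Sox1 and the X-linked Gata1 were not matched. Alternatives varied the promoter distance, the overlap, the starts, the use of region edges and a score filter.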

Additional observations from a re-analysis of the deposited data

How the results depend on the processing

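Of 66 alternative values of the counts, shares and ranks, 51 stayed within the interval (for a median rank, the 95% interval from its order statistics) or within 1.5 times the count and 15 did not. The difference between the lists kept its direction under each of the alternatives run for these measures. For the median promoter rank it is a difference over partly different genes. Keeping only the higher-scoring 50% of each list left 56 and 80 collagen regions, 13 and 28 intronic ones, and 20 genes with a promoter region at E10.5, moved the median promoter percentile at E9.5 from 24.6 to 40.5, gave promoter-proximal shares of 48.2% at E9.5 and 28.8% at E10.5, and E10.5-specific shares of 55.0% of all and 73.7% of distal collagen regions. Set against the whole other list, an alternative chosen after seeing the data, the stage-specific shares of these higher-scoring regions were 23.2% and 32.5%. A promoter distance of 1 kb gave promoter-proximal shares of 18.8% and 14.8%, one of 5 kb gave 34.8% at E9.5, and the first start alone gave 20.8% at E9.5.

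Of the 7 genes whose promoter rank differed by at least 20 points, Col5a2, Col5a1 and Col22a1 did so in all 4 alternatives. With the first start alone, Col9a1 and Col28a1 had no promoter rank and Col13a1 passed the limit. At 1 kb, Col28a1 had none in either list, Col2a1 fell short and Col3a1 had a promoter region at E9.5 only (percentile 6.58), which turned its direction. With the higher-scoring 50%, Col3a1 and Col28a1 had a promoter region at E10.5 only (53.0 and 45.8), Col13a1 at E9.5 only, and Col18a1 passed.

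No paired analysis was possible because the lists combine both replicates of a stage, and leaving out a replicate was not run for the same reason.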

Other observations

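The rule left out 3 collagen genes by position or name. Col4a5 and Col4a6, the head-to-head type IV pair on the X chromosome, shared 1 promoter region with a score of 319 at E9.5 and 596 at E10.5. Emid2, which the reference table lists under the synonym Col26a1, had 8 regions at each stage, 1 of them stage-specific at each, and a best promoter score of 566 at E9.5 and 536 at E10.5.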
